A study of Mus musculus with 9 samples.

Results

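Axon guidance ligands, their receptors and a few adaptors were examined in sorted cells of the newborn mouse retina. The set has 56 named genes in 5 families: Slit-Robo with 8 genes, semaphorin-plexin with 20, ephrin-Eph with 15, netrin with 9 and reelin with 4. The array measured 55 of the 56, out of 18193 genes in all; the remaining gene, Ephb2, had no probe set under its symbol alone and is not analysed here. By role the measured genes were 27 receptors, 25 ligands and 3 adaptors. Each gene was read from 1 probe set, a group of short oligonucleotides against one transcript, and where a gene had several the one with the highest mean over all arrays was used.

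The study hybridised 9 arrays, 3 for each of 3 cell populations sorted by green fluorescent protein (GFP). All mice had the genetic background C57BL/6J-129/Ola, and the retinae of 6 to 8 pups were pooled for each replicate. From rhoEGFP pups at postnatal day 4 (P4), a line named for rhodopsin, the light-absorbing protein of rods, both the rhoGFP-positive and the rhoGFP-negative cells were taken. From pNestin-GFP pups at postnatal day 0 (P0), a line named for the promoter of nestin, an intermediate filament of neural progenitors, the nestinGFP-positive cells were taken. Each group is a sorted mixture defined by a reporter, the rhoGFP-negative cells being every other sorted cell of the P4 retina. A contrast with the nestinGFP-positive group changes age, mouse line and population together, and these cannot be told apart. The labels call the 3 samples of a group biological replicates. Values are log2 intensities, so that a difference of 1 is 2-fold.

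Guidance cues are proteins that steer growing axons and migrating neurons by attraction or repulsion. Slits are secreted and signal through Robo receptors; semaphorins signal through plexins, the secreted class 3 members with neuropilins as co-receptors. Ephrins are anchored in the membrane and bind Eph receptor kinases on the neighbouring cell. Netrins act through Dcc and Unc5 receptors, and reelin binds Vldlr and Lrp8, which pass the signal to the adaptor Dab1. In the retina these families are known for guiding ganglion cell axons to the optic nerve and to their targets, for the layering of neurites in the plexiform layers and for the placement of neurons.

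Most guidance genes that differed were lower in rhoGFP-positive cells than in both other populations. In a limma fit over all 9 arrays, a gene was called where its Benjamini-Hochberg adjusted p was below 0.05 and its log2 difference at least 1 in size. Against rhoGFP-negative cells of the same age, 24 of 55 genes were lower, 2 were higher and 29 were not called. That is 47.3% of the set called (3.64% higher and 43.6% lower), where 10.9% of all 18193 genes were called (3.61% higher and 7.32% lower). The share called higher was near that of all genes. The set, the further genes and the markers were chosen with earlier results of these data known. Their shares, here and below, are therefore not an independent test. The median log2 difference was -0.71 over the set and 0.01 over all genes. In 34 genes of the set every rhoGFP-positive array lay below every rhoGFP-negative array, and in 4 every one lay above, where 20.3% and 17.9% of all genes did so. With all arrays shifted to a common median, 998 of all genes were lower and 1018 higher in place of 1332 and 656, the median over all genes was 0.25 and that of the set -0.47, and 18 genes of the set were lower and 2 higher. With genes of low mean signal left out, 565 of 10916 genes were higher and 1195 lower, and 44 genes of the set remained. The median was then -0.04 over all genes and -0.82 over the set. In sorted populations, fewer cells of a type and less RNA per cell cannot be told apart.

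**Figure D1:**
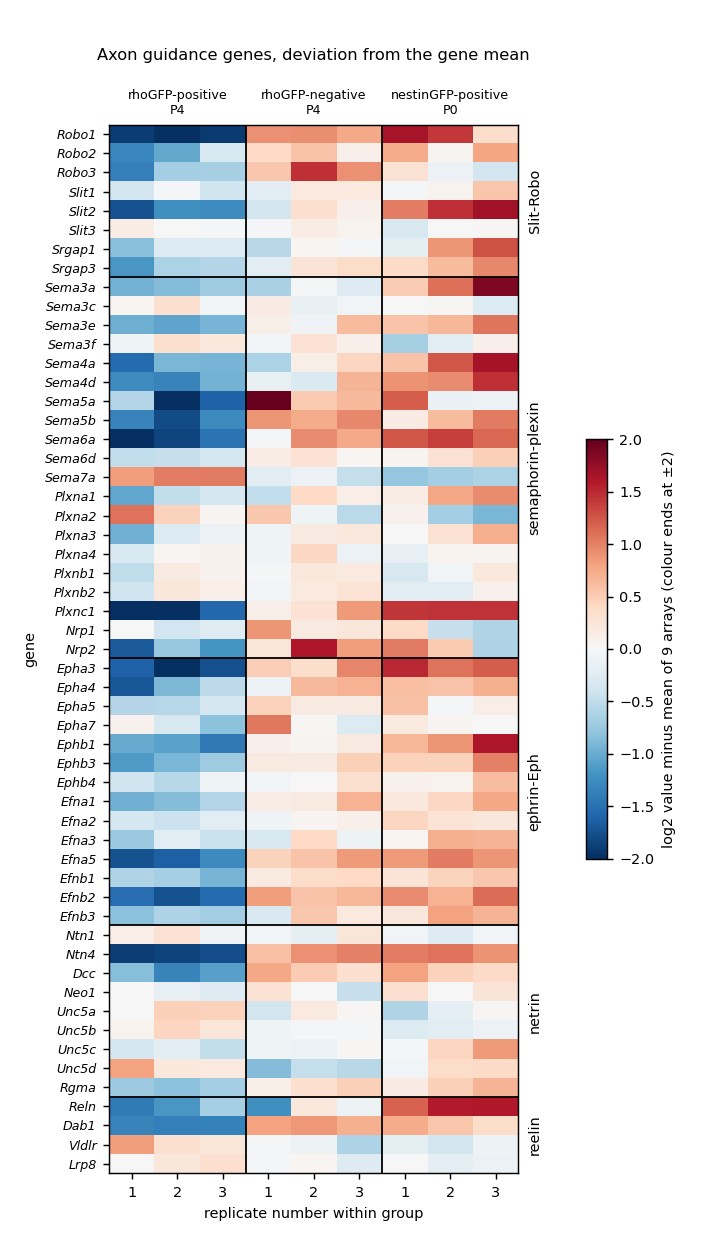
Each row is 1 of the 55 genes, grouped by family, and each column 1 of the 9 arrays; colour is the log2 value minus the gene's mean over the 9 arrays, with the colour scale ending at 2 in either direction. The 3 rhoGFP-positive columns are blue for most genes, and Sema7a stands out in red there.

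Markers of other cell types moved with the same contrast. All 11 measured rod markers were higher in rhoGFP-positive than in rhoGFP-negative cells, and their summed intensity on a log2 scale was 15.86 to 15.96 in rhoGFP-positive, 13.51 to 14.03 in rhoGFP-negative and 12.72 to 13.43 in nestinGFP-positive arrays. Lower were 8 of 10 progenitor markers (summed intensity 12.76 to 13.30 in rhoGFP-positive against 14.14 to 14.77 in rhoGFP-negative arrays) and 5 of 5 markers of dividing cells (9.34 to 10.63 against 11.42 to 13.18). Also lower were 7 of 8 amacrine markers (10.87 to 12.06 against 12.08 to 13.32), 4 of 9 ganglion cell markers (9.66 to 9.85 against 10.93 to 11.55) and 3 of 6 Müller glia markers (10.90 to 11.17 against 12.01 to 12.62). Of 5 horizontal cell markers 2 were lower (7.91 to 8.09 against 9.09 to 9.79), of 7 bipolar markers 2 were lower and 1 higher (13.47 to 13.56 against 13.59 to 13.92), and of 3 astrocyte markers 1 was lower (7.01 to 7.17 against 8.01 to 8.79). Of 7 cone markers 1 was higher (11.43 to 12.18 against 10.90 to 11.55), as was 1 of 6 pigment epithelium markers (8.66 to 8.92 against 8.16 to 8.26), and 0 of 8 microglia markers were called. Of 9 endothelial and mural markers 2 were lower, Kdr and Cldn5, and the summed intensity was 9.52 to 9.83 against 11.45 to 11.92. The other 7 were not called, among them Pecam1 with group means of 4.38 and 4.28. Nes, whose promoter marks the P0 cells, was not called: rhoGFP-positive cells differed by -0.56 from each of the other groups (SE 0.18). The part of these markers in the guidance gene differences was not tested. The mean of the 18S ribosomal RNA control probe sets was 13.62, 13.61 and 12.13 on the 3 arrays numbered 1 and between 9.65 and 10.44 on the other 6. The difference between 3′ and 5′ actin control signal was 0.85 to 0.98 on rhoGFP-positive, 0.64 to 0.68 on rhoGFP-negative and 0.40 to 0.99 on nestinGFP-positive arrays.

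In the Slit-Robo family 4 of 8 genes were lower in rhoGFP-positive than in rhoGFP-negative cells, where 7.32% of all genes were. The 4 were the receptors Robo1, Robo2 and Robo3 and the ligand Slit2, and none was higher. Robo1, a receptor for Slit-driven repulsion, read 5.13, 4.82 and 5.12 on the rhoGFP-positive arrays, 7.94, 7.96 and 7.79 on the rhoGFP-negative arrays and 8.68, 8.45 and 7.39 on the nestinGFP-positive arrays. The rhoGFP-positive values lay well below those of both other groups, which overlapped each other. The log2 difference from rhoGFP-negative cells was -2.88 (SE 0.28, 7.34-fold, adjusted p = 6.3e-05), and from nestinGFP-positive cells -3.15 (SE 0.28, adjusted p = 2.23e-05). Robo3, a divergent Robo that lets commissural axons cross the midline, read 5.88, 6.57 and 6.59 in rhoGFP-positive, 7.79, 8.71 and 8.16 in rhoGFP-negative and 7.55, 7.14 and 6.86 in nestinGFP-positive cells. Here the rhoGFP-negative group was the highest of the 3 and overlapped neither of the others. The difference between the P4 groups was -1.87 (SE 0.28, adjusted p = 0.000776), while that from nestinGFP-positive cells, -0.84 (SE 0.28, adjusted p = 0.0385), was below the minimum size. Robo2 differed by -1.24 (SE 0.27) and -1.41 (SE 0.27) from rhoGFP-negative and nestinGFP-positive cells, both called, with all 3 group means (4.38, 5.63 and 5.80) in the low-signal range under 6.26.

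Slit2, a repellent of ganglion cell axons, gave a stepwise pattern. It read 6.86, 7.37 and 7.35 in rhoGFP-positive, 8.23, 8.94 and 8.70 in rhoGFP-negative and 9.62, 10.06 and 10.28 in nestinGFP-positive cells. No 2 groups overlapped. The rhoGFP-positive cells differed by -1.43 (SE 0.23, adjusted p = 0.00133) from the other P4 group and by -2.79 (SE 0.23, adjusted p = 1.4e-05) from the P0 group. The other ligands were not called: between the P4 groups Slit1 differed by -0.32 (SE 0.19) and Slit3 by -0.02 (SE 0.12). A second Slit1 probe set, dimmer than the first (mean 7.56), gave -0.99 (SE 0.20, adjusted p = 0.00783 over all probe sets) there and was called lower against nestinGFP-positive cells, at -1.52 (SE 0.20, adjusted p = 0.000434). Srgap1 and Srgap3, GTPase-activating proteins that bind the cytoplasmic part of Robo, were lower against nestinGFP-positive cells, at -1.12 (SE 0.34) and -1.46 (SE 0.21). Between the P4 groups their differences were -0.28 (SE 0.34) and -0.94 (SE 0.21, adjusted p = 0.00999), neither called. Srgap3 was called lower between them without rhoGFP-positive replicate 2 or 3, or without rhoGFP-negative replicate 1. The Srgap1 call against nestinGFP-positive cells was lost on leaving out any 1 of 4 arrays (replicate 1 or 2 of the rhoGFP-positive, or replicate 2 or 3 of the nestinGFP-positive group), with differences of -1.21 to -0.81 there.

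In the semaphorin-plexin family 8 of 20 genes were lower and 1 higher in rhoGFP-positive than in rhoGFP-negative cells. Against nestinGFP-positive cells 10 were lower and 2 higher. Lower were 40% and 50% of the family in these contrasts, and 7.32% and 10.5% of all genes. The 1 and 2 higher genes were 5% and 10% of the family, where 3.61% and 5.06% of all genes were higher. Sema7a, a semaphorin held in the membrane by a lipid anchor and a known ligand of plexin C1 and of integrin beta 1, was higher in rhoGFP-positive cells. It read 10.02, 10.20 and 10.22 there, 8.97, 9.06 and 8.70 in rhoGFP-negative and 8.41, 8.50 and 8.55 in nestinGFP-positive cells. The 3 groups did not overlap. The differences were 1.24 (SE 0.12, 2.36-fold, adjusted p = 6.08e-05) and 1.66 (SE 0.12, 3.15-fold, adjusted p = 7.12e-06). Its receptor gene Plxnc1 ran the other way, at 5.65, 5.67 and 6.10 in rhoGFP-positive, 7.79, 7.96 and 8.53 in rhoGFP-negative and 9.09, 9.11 and 9.12 in nestinGFP-positive cells. Again no 2 groups overlapped, and the 3 nestinGFP-positive arrays were nearly equal. The differences were -2.28 (SE 0.19, adjusted p = 2.77e-05) and -3.30 (SE 0.19, 9.87-fold, adjusted p = 2.39e-06), the last the largest measured difference of the 55 genes in that contrast. The rhoGFP-positive means of Plxnc1, 5.81, and Robo1, 5.02, lay in the low range of the arrays. They were under 6.26, the 40th percentile of mean signal over all genes. So were those of the called genes Srgap1, Sema3a, Sema4a, Sema6a, Epha4, Efna1, Ntn4 and Rgma. Differences and ranks that rest on such means are values of low signal.

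Among the other semaphorins, Sema5a, Sema6a and Sema5b had the largest differences between the P4 groups; Sema6d, of the same class as Sema6a, was not called, at -0.60 (SE 0.13). Sema5a, a cue that keeps retinal neurites in the inner layers, read 7.20, 5.72 and 6.16 in rhoGFP-positive, 9.90, 8.31 and 8.43 in rhoGFP-negative and 9.0, 7.65 and 7.67 in nestinGFP-positive cells. Replicate 1 was the highest in every group, so the spread was wide and the difference of -2.52 between the P4 groups had an SE of 0.53 (adjusted p = 0.00629). Its difference from nestinGFP-positive cells, -1.74 (SE 0.53, adjusted p = 0.0275), was lost on leaving out any 1 of 3 arrays (replicate 2 or 3 of the rhoGFP-positive or replicate 1 of the nestinGFP-positive group), at -1.64 to -1.30. A second Sema5a probe set of similar signal (mean 7.59 against 7.78) gave -3.03 (SE 0.20) and -3.11 (SE 0.20) in the 2 contrasts, both called. Sema6a, a transmembrane ligand of A-type plexins, read 5.57, 5.86 and 6.23 in rhoGFP-positive, 7.67, 8.65 and 8.47 in rhoGFP-negative and 8.95, 9.08 and 8.85 in nestinGFP-positive cells. The groups formed 3 separate steps, with differences of -2.38 (SE 0.25, adjusted p = 9.7e-05) and -3.07 (SE 0.25, adjusted p = 1.31e-05). Sema5b, the near relative of Sema5a, differed by -2.33 (SE 0.21) and -2.08 (SE 0.21). The class 4 genes Sema4a and Sema4d, the latter a ligand of plexin B1, differed by -1.10 (SE 0.33) and -1.26 (SE 0.25) between the P4 groups and by -2.28 each (SE 0.33 and 0.25) from nestinGFP-positive cells. Sema3e, a secreted semaphorin that binds plexin D1, differed by -1.21 (SE 0.19) and -1.75 (SE 0.19), also with all 3 group means under 6.26. Sema3a, the classic growth cone collapsing factor, was called against nestinGFP-positive cells alone, at -2.01 (SE 0.29), and its difference between the P4 groups was -0.53 (SE 0.29).

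The receptors of this family split. Besides Plxnc1, Nrp2, a neuropilin co-receptor for class 3 semaphorins, was lower, at -2.10 (SE 0.45) and -1.53 (SE 0.45); its relative Nrp1 had differences of -0.64 (SE 0.27) and 0.02 (SE 0.27), neither called. Plxna1 was lower against nestinGFP-positive cells, at -1.25 (SE 0.28). Plxna2, a receptor of Sema6a, was called higher there at 1.03 (SE 0.35, adjusted p = 0.0433), although its rhoGFP-positive values of 11.42, 10.80 and 10.39 overlapped the nestinGFP-positive values of 10.42, 9.66 and 9.43. That call was lost on leaving out any 1 of 5 arrays (both P4 groups' replicate 2, rhoGFP-positive replicate 1, nestinGFP-positive replicates 2 and 3), at 0.76 to 1.07. The Nrp2 call against nestinGFP-positive cells was lost without any 1 of 4 (replicate 1 or 3 of the rhoGFP-positive, replicate 1 or 2 of the nestinGFP-positive group), at -1.53 to -1.17. Between the P4 groups the 11 uncalled genes of the family ranged from -0.64 for Nrp1 and Plxna1 to 0.57 for Plxna2. The other plexin genes lay inside that range, with Plxna3 at -0.55, Plxnb1 at -0.21, Plxnb2 at -0.15 and Plxna4 at -0.14.

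**Figure D2:**
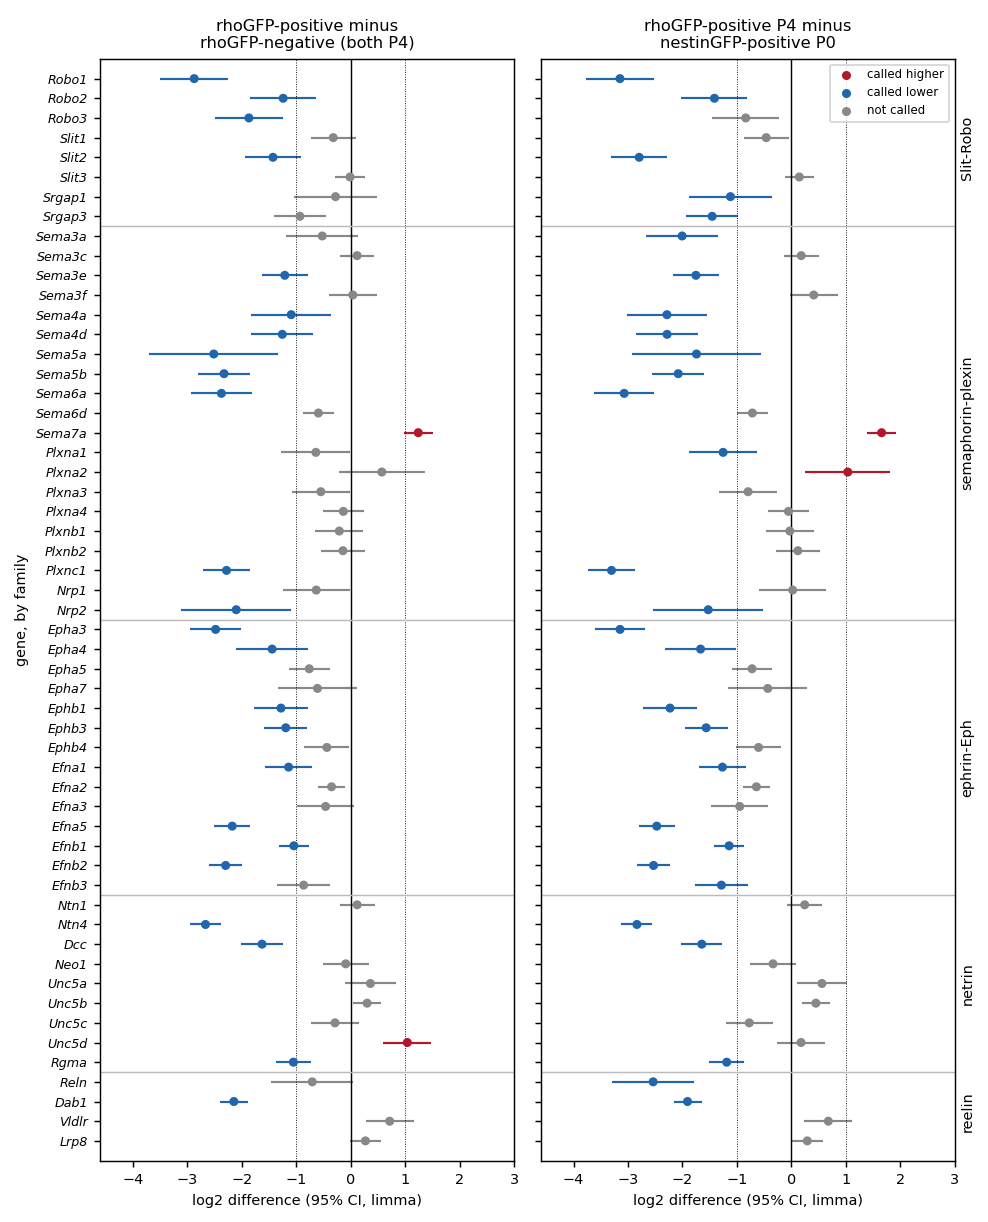
Points are log2 differences with 95% confidence intervals from the limma fit, rhoGFP-positive minus rhoGFP-negative on the left and minus nestinGFP-positive on the right, 1 row per gene; dotted lines mark the minimum difference of 1. Blue genes (24 on the left, 29 on the right) were called lower, red genes (2 in each panel) higher, and grey genes were not called.

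Of the ephrin-Eph genes, 8 of 14 were lower in rhoGFP-positive than in rhoGFP-negative cells and 9 of 14 than in nestinGFP-positive cells. None was higher in either contrast. Of all genes 7.32% and 10.5% were lower in these contrasts. On the probe set that stands for it, every measured gene of the family had a negative difference in both. For Epha5 these were -0.76 and -0.72 (SE 0.17 each), neither called, from a probe set with a mean of 9.47. Its probe sets with means of 9.13 and 8.85 gave -0.001 and -0.05 between the P4 groups. Against nestinGFP-positive cells they gave 0.30 and 0.31. The receptor Epha3, a kinase that binds A-type ephrins, read 6.67, 6.04 and 6.53 in rhoGFP-positive, 8.78, 8.64 and 9.26 in rhoGFP-negative and 9.80, 9.38 and 9.49 in nestinGFP-positive cells. Its groups were separate, with differences of -2.48 (SE 0.21, 5.59-fold, adjusted p = 2.67e-05) and -3.15 (SE 0.21, adjusted p = 4.42e-06). The ligand Efnb2, a transmembrane ephrin that marks the dorsal retina, read 8.18, 7.97 and 8.15 in rhoGFP-positive, 10.54, 10.29 and 10.37 in rhoGFP-negative and 10.66, 10.40 and 10.83 in nestinGFP-positive cells. The latter groups overlapped and the first lay below both, at -2.30 (SE 0.13, adjusted p = 4.71e-06) and -2.53 (SE 0.13, adjusted p = 1.49e-06).

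The remaining called receptors were Epha4 at -1.45 (SE 0.29) and -1.67 (SE 0.29), Ephb1 at -1.28 (SE 0.22) and -2.23 (SE 0.22), and Ephb3 at -1.20 (SE 0.18) and -1.56 (SE 0.18), the first of each pair against rhoGFP-negative and the second against nestinGFP-positive cells. Ephb1 is the receptor that turns ventrotemporal ganglion cell axons away from the midline at the optic chiasm. Among the A-type ligands, which are held by a lipid anchor, Efna5 differed by -2.18 (SE 0.15) and -2.47 (SE 0.15) and Efna1 by -1.14 (SE 0.19) and -1.27 (SE 0.19). Efna5 is known for the map of ganglion cell axons in the superior colliculus. Among the transmembrane ligands Efnb1 differed by -1.05 (SE 0.12) and -1.14 (SE 0.12), and Efnb3 was called against nestinGFP-positive cells alone, at -1.29 (SE 0.22). Between the P4 groups the 6 uncalled genes ranged from -0.87 for Efnb3 to -0.35 for Efna2. Efnb3 was called lower between them without rhoGFP-negative replicate 1. In that contrast the calls of Efna1, Rgma and Sema4d were lost without replicate 3 of the rhoGFP-negative group, at -0.97, -0.98 and -0.96, and that of Efnb1 without replicate 3 of the rhoGFP-positive group, at -0.95. Sema4a lost its call on leaving out any 1 of 6 arrays, all but rhoGFP-negative replicate 1 and nestinGFP-positive replicates 1 and 3, with adjusted p between 0.0579 and 0.132. Of 26 genes called between the P4 groups, 20 stayed called whichever array was left out, and of 31 called against nestinGFP-positive cells 27 did.

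In the netrin family 3 of 9 genes were lower and 1 was higher in rhoGFP-positive than in rhoGFP-negative cells. That is 33.3% lower and 11.1% higher, where 7.32% and 3.61% of all genes were. Ntn4, a netrin of basement membranes that binds laminin, read 5.54, 5.57 and 5.66 in rhoGFP-positive, 8.01, 8.34 and 8.44 in rhoGFP-negative and 8.45, 8.52 and 8.32 in nestinGFP-positive cells. The differences of -2.67 (SE 0.13, 6.36-fold, adjusted p = 1.92e-06) and -2.84 (SE 0.13, adjusted p = 8.79e-07) were many times the spread between replicates. The rhoGFP-positive mean of 5.59 was in the low-signal range under 6.26. Dcc, the attractive netrin receptor, read 7.99, 7.51 and 7.77 in rhoGFP-positive, 9.62, 9.36 and 9.19 in rhoGFP-negative and 9.66, 9.31 and 9.23 in nestinGFP-positive cells. It was lower, at -1.63 (SE 0.17, adjusted p = 9.53e-05) and -1.65 (SE 0.17, adjusted p = 5.44e-05), and the latter groups overlapped. Rgma, a membrane-anchored repellent that binds neogenin, differed by -1.06 (SE 0.15) and -1.19 (SE 0.15); its receptor gene Neo1 had differences of -0.09 (SE 0.19) and -0.34 (SE 0.19), neither called.

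Unc5d, a member of the repulsive netrin receptor family, was the gene called higher. It read 6.23, 5.64 and 5.62 in rhoGFP-positive, 4.56, 4.96 and 4.86 in rhoGFP-negative and 5.36, 5.79 and 5.80 in nestinGFP-positive cells. The rhoGFP-positive values lay above the rhoGFP-negative ones by 1.04 (SE 0.20, adjusted p = 0.00363) and overlapped the nestinGFP-positive ones. All 3 group means (5.83, 4.79 and 5.65) lay in the low-signal range under 6.26, and the gene had 1 probe set. The call was lost without replicate 1 of either P4 group, at 0.83 to 0.92. The other Unc5 genes were not called between the P4 groups: Unc5a differed by 0.36 (SE 0.21), Unc5b by 0.30 (SE 0.11) and Unc5c by -0.29 (SE 0.19). The ligand Ntn1 differed by 0.12 (SE 0.14).

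In the reelin pathway 1 of 4 genes, the adaptor Dab1, was lower between the P4 groups, where 7.32% of all genes were. Dab1 and Reln were lower against nestinGFP-positive cells, where 10.5% of all genes were. Neither receptor was called on the probe set that stands for it. Dab1 read 6.93, 6.90 and 6.91 in rhoGFP-positive, 9.07, 9.14 and 8.98 in rhoGFP-negative and 9.02, 8.82 and 8.63 in nestinGFP-positive cells. It was lower, at -2.15 (SE 0.11, 4.43-fold, adjusted p = 3.24e-06) and -1.91 (SE 0.11, adjusted p = 2.67e-06). Reln, the secreted ligand, read 8.59, 8.84 and 9.33 in rhoGFP-positive, 8.78, 10.21 and 9.89 in rhoGFP-negative and 11.18, 11.59 and 11.61 in nestinGFP-positive cells. The P4 groups overlapped (-0.71, SE 0.34, adjusted p = 0.176). Without rhoGFP-negative replicate 1, the lowest of its group, Reln was called lower between them. Both P4 groups lay below the P0 arrays, the rhoGFP-positive cells at -2.54 (SE 0.34, adjusted p = 0.00026). Of the receptors, Vldlr read 10.32, 9.81 and 9.72 in rhoGFP-positive, 9.46, 9.38 and 8.87 in rhoGFP-negative and 9.31, 9.12 and 9.38 in nestinGFP-positive cells. Its rhoGFP-positive arrays lay above those of both other groups, by 0.71 (SE 0.20, adjusted p = 0.0248) and 0.68 (SE 0.20, adjusted p = 0.0226), differences under the minimum size of a call. Its probe set is of the kind that can match related transcripts; without such probe sets Vldlr was read from another with a mean of 9.35 and was called higher against nestinGFP-positive cells, at 1.09 (SE 0.20), as it also was, at 1.03, with all arrays shifted to a common median. Lrp8 differed by 0.27 (SE 0.13) and 0.29 (SE 0.13), neither called.

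**Figure D3:**
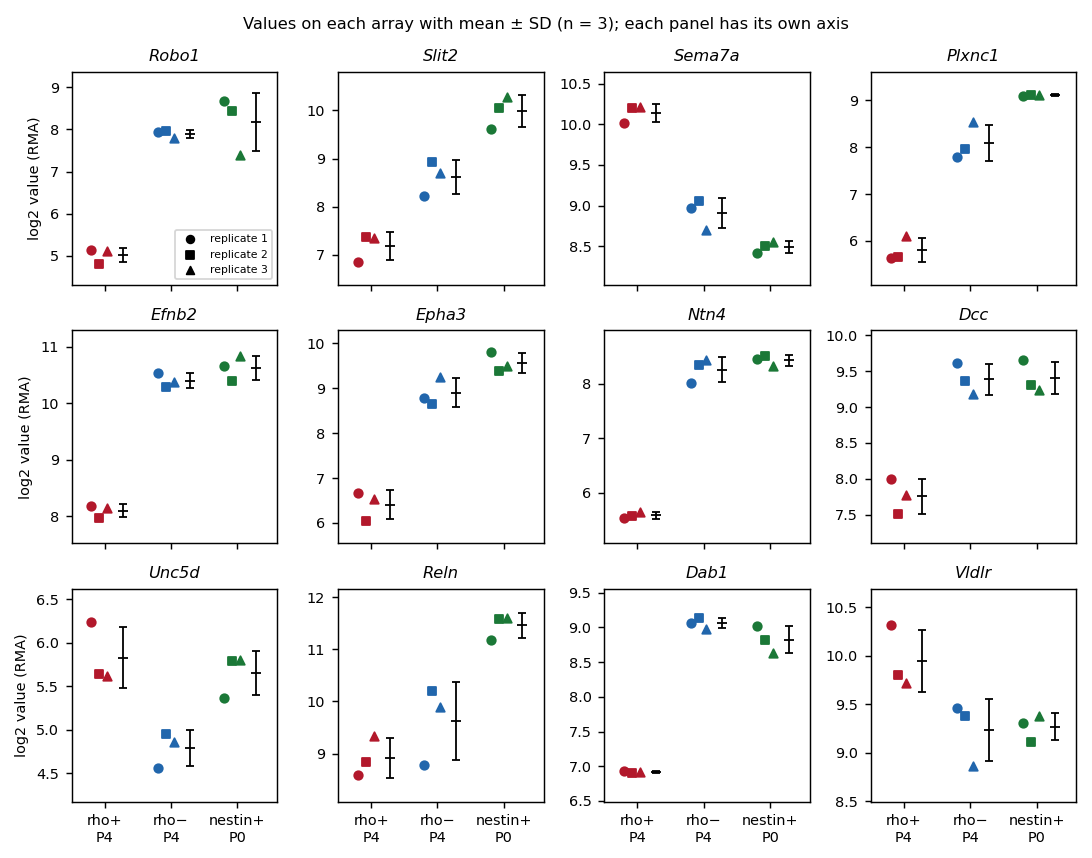
Each panel gives 1 gene's log2 value on every array, circles, squares and triangles standing for replicates 1, 2 and 3, with the group mean and SD (n = 3) beside them; each panel has its own vertical axis. Slit2 and Plxnc1 form 3 steps, Ntn4, Dcc, Efnb2 and Dab1 are low in rhoGFP-positive cells alone, and Sema7a is high there.

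Against nestinGFP-positive cells as a whole, 29 of the 55 genes were lower in rhoGFP-positive cells and 2 were higher. That is 56.4% of the set (3.64% higher and 52.7% lower), where 15.6% of all genes were called (5.06% higher and 10.5% lower). The median difference was -1.14 over the set and 0.06 over all genes. In 38 genes all rhoGFP-positive arrays lay below all nestinGFP-positive arrays and in 3 above, where 23.4% and 24.4% of all genes did so. After the shift to a common median 1352 of all genes were lower and 1699 higher in place of 1917 and 921, with a median of 0.42 over all genes, and 23 genes of the set were lower and 3 higher. By role, 16 of 25 ligands, 10 of 27 receptors and 3 of 3 adaptors were lower, and 1 ligand and 1 receptor were higher. Between the P4 groups the same counts were 13 ligands, 10 receptors and 1 adaptor lower, and 1 ligand and 1 receptor higher. Both contrasts use the same rhoGFP-positive arrays, so they are not independent.

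The contrast without the rhoGFP-positive arrays gave few calls. Between rhoGFP-negative P4 and nestinGFP-positive P0 cells, 4 of 55 genes were lower and none higher, 7.27% of the set against 0.989% of all genes (0.605% lower and 0.385% higher); 18 of the 55, and 3285 of all 18193 genes, had an unadjusted limma p below 0.05. In 12 genes every rhoGFP-negative array lay below every nestinGFP-positive array and in 3 above, where 8.79% and 11.8% of all genes did so. The 4 called were Reln (-1.83, SE 0.34, adjusted p = 0.0305), Sema3a (-1.48, SE 0.29, adjusted p = 0.0403), Slit2 (-1.36, SE 0.23, adjusted p = 0.0245) and Plxnc1 (-1.02, SE 0.19, adjusted p = 0.0329). Sema3a read 5.39, 5.99 and 5.78 in rhoGFP-negative and 6.55, 7.14 and 7.91 in nestinGFP-positive cells, without overlap. Every one of the 4 calls was lost on leaving out rhoGFP-positive replicate 2, rhoGFP-negative replicate 1, or nestinGFP-positive replicate 2 or 3. Plxnc1 also lost its call without rhoGFP-negative replicate 2 or nestinGFP-positive replicate 1, and Sema3a without rhoGFP-positive replicate 1 or 3 or rhoGFP-negative replicate 2. The adjusted p values of the lost calls lay between 0.0503 for Plxnc1 and 0.144 for Sema3a. None of the 4 was called when the 6 arrays of this contrast were fitted alone. Robo3, higher in rhoGFP-negative cells by 1.03 (SE 0.28), had an adjusted p of 0.0843. With the replicate number as a block it was called higher, and Sema4a and Sema4d were called lower besides the other 4. A shared number was not shown to pair arrays of these groups.

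The order of the group means was rhoGFP-positive lowest, rhoGFP-negative next and nestinGFP-positive highest in 33 of the 55 genes (60.0%) and in 25.9% of all genes. In 10 genes (18.2%) the 3 groups also did not overlap at either step, as in 4.52% of all genes: Slit2, Srgap3, Sema3a, Sema4a, Sema4d, Sema6a, Plxnc1, Epha3, Ephb1 and Efna2. In 9 genes (16.4%), and 11.3% of all genes, the rhoGFP-negative cells had the highest mean and the rhoGFP-positive cells the lowest. The arrays numbered 1, which had the highest 18S control signal of each group, gave the highest value of the group in all 3 groups for 6 genes (Sema5a, Plxna2, Nrp1, Epha7, Dcc and Neo1) and the lowest for 17; 12.2% and 21.8% of all genes did so. Without the 3 arrays numbered 1, Robo2 and Unc5d lost their call between the P4 groups and Efnb3 gained one.

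Most genes had more than 1 probe set, and these did not all give the same size of difference. The 55 genes had 146 probe sets, 45 genes having several. Of the 21 genes with several that were called between the P4 groups, 3 (Dab1, Efnb1 and Sema5b) had every probe set called in the same direction. In 10 of the 21, which include those 3, at least 1 other probe set was called the same way, in 11 no other was called, and in none was any called the opposite way. For Dab1 the 5 probe sets gave -2.19 to -1.41. For Efnb2 the 2 with the highest signal gave -2.30 and -2.47, and those with mean log2 values of 5.88 and 4.48 gave -0.50 and -0.06. For Epha3 3 of 4 probe sets gave -2.48, -2.36 and -1.60 and the dimmest -0.17. Robo1 rests on 1 probe set with a mean of 7.03; those with means of 5.16 and 4.47 gave -0.17 and -0.16, and the mean of all 3 gave -1.07. For Ntn4 the second probe set, with a mean of 4.98, gave -0.46, and for Efna5 the second, with a mean of 4.69, gave 0.00. For Sema7a the second probe set gave 0.64, and the mean of both was not called. All 6 Vldlr probe sets gave 0.71 to 0.90, each with an adjusted p below 0.05 over all probe sets, but none passed the minimum size between the P4 groups. Slit1 and Vldlr were the 2 uncalled genes with another probe set called against nestinGFP-positive cells, and no uncalled gene had one in the other contrasts. With the mean of all its probe sets standing for each gene, 8 genes lost their call between the P4 groups (Robo3, Slit2, Sema3e, Sema4a, Sema4d, Sema7a, Plxnc1 and Efna1) and 7 against nestinGFP-positive cells (Srgap1, Sema3a, Sema3e, Plxna1, Plxna2, Nrp2 and Dcc). With all arrays shifted to a common median, 6 genes lost their call between the P4 groups (Sema3e, Sema4a, Ephb3, Efna1, Efnb1 and Rgma).

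**Figure D4:**
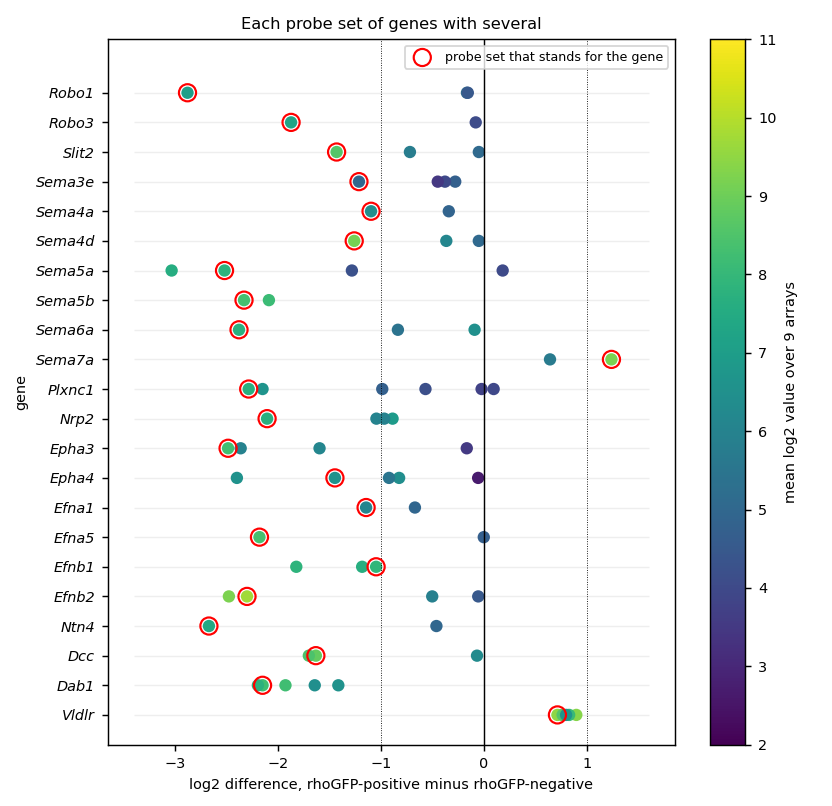
Each point is 1 probe set of a gene with several, placed by its log2 difference between the P4 groups and coloured by its mean log2 value over the 9 arrays; a red ring marks the probe set that stands for the gene, and dotted lines mark differences of 1 in size. Probe sets near 0 within a row that has a large difference are mostly those with a low mean value, as for Robo1, Efna5 and Ntn4.

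Other genes of the guidance pathways, 83 measured of 86 listed, were family members outside the set and intracellular effectors. Between the P4 groups 20 were lower and 4 higher (28.9%), against nestinGFP-positive cells 26 lower and 4 higher (36.1%), and between rhoGFP-negative and nestinGFP-positive cells 2 lower and none higher (2.41%). Of all genes 10.9%, 15.6% and 0.989% were called in these contrasts. The share called higher, 4.82% in each contrast of rhoGFP-positive cells, was near that of all genes, 3.61% and 5.06%. Their median difference was -0.27 between the P4 groups. The lowest differences there were in Chn2, a Rac GTPase-activating protein (-2.40, SE 0.13), Pak3, a Rac-activated kinase (-2.14, SE 0.18), and Crmp1, a collapsin response mediator (-1.95, SE 0.25). The highest were in Itga3, an integrin alpha chain (2.31, SE 0.23), and in the adhesion molecules Dscaml1 (1.75, SE 0.38) and Dscam (1.30, SE 0.22). Against nestinGFP-positive cells the lowest were Nrcam, a cell adhesion molecule (-2.69, SE 0.17), Crmp1 (-2.60, SE 0.25) and Flrt3, a ligand of Unc5 receptors (-2.57, SE 0.11), and the highest were Dscaml1 (2.63, SE 0.38), Itga3 (2.35, SE 0.23) and Ntng2 (1.44, SE 0.32). The 2 lower genes of the last contrast were Ablim1 (-1.43, SE 0.21) and Dscam (-1.14, SE 0.22).

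For the measured genes of the set, called or not, the 250 bases before RefSeq transcription starts (GRCm38.p6) were searched for 3 short motifs. The motifs are those of factors known in retinal cells. These were TAATCC, a core site of photoreceptor homeobox factors, TGCTGA, a core letter run in the sites of Maf factors, and CANNTG, the E-box of basic helix-loop-helix factors; both strands were read, and E-boxes may overlap the other motifs. Windows were listed for 45 of the 55 genes, 61 in all. TAATCC was in 1 of the 61 (1.64%, Robo3) and in 6.25% of all 32851 windows. TGCTGA was in 6 (9.84%) against 16.1%, and CANNTG in 27 (44.3%) against 66.2%. For the examples, windows on 1 chromosome were left out. Of 23 genes lower in rhoGFP-positive cells in both contrasts, 11 had a window on the other chromosomes outside every annotated gene. Among genes with exactly 1 such window, the 1 with the largest difference between the P4 groups is shown for each family that had any. These are examples of promoters of genes that were low in the same cells, with all 3 motifs in capitals.
Nrp2, chr1:62703067-62703316, plus strand: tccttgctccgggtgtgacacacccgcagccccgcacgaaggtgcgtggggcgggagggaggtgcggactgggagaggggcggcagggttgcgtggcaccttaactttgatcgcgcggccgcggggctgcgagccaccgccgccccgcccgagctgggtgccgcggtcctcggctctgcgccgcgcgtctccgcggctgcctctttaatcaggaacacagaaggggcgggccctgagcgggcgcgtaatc
Epha3, chr16:63864176-63864425, minus strand: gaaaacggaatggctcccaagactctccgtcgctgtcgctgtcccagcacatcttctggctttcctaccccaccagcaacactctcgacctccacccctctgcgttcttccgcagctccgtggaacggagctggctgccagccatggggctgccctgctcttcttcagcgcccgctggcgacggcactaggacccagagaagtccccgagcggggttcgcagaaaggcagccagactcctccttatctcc
Ntn4, chr10:93640799-93641048, plus strand: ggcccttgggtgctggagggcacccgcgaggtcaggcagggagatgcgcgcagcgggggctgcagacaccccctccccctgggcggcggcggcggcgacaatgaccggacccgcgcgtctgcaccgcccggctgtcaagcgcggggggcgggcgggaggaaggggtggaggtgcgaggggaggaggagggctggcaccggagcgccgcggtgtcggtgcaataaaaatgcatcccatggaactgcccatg
Dab1, chr4:103619250-103619499, plus strand: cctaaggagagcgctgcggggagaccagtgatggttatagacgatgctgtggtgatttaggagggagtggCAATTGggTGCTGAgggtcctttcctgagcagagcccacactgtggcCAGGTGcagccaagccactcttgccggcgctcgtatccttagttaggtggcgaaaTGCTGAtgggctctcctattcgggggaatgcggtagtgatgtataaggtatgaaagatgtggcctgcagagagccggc
Only the Dab1 window among these 4 held any of the motifs, with 2 TGCTGA and 2 CANNTG matches. A match is a string of letters and not a measured binding site.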

How the data were processed

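Total RNA of 9 sorted samples, 3 in each of 3 groups, was isolated with the Qiagen RNeasy Mini kit, made into biotinylated cRNA from 200 ng with the Ambion MessageAmp II kit and hybridised to Affymetrix mouse arrays, per the labels' protocols. The log2 values deposited by the authors were made with RMA, per the submitters' processing notes, with no version or settings named. RMA subtracts background, sets all arrays to one intensity distribution and summarises probes on a log2 scale, so values are relative intensities, and the number of arrays limits the precision.

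Of 45101 probe sets, 64 were controls, 34945 had 1 gene symbol in the platform annotation, 932 several and 9160 none listed. Those with 1 symbol gave 18193 genes. limma 3.58.1 in R 4.3.3 fitted 3 group means to all 9 arrays, with empirical Bayes moderation and Benjamini-Hochberg adjustment over the 18193 genes; limma was tested on simulated data. Single probe sets were adjusted over 34945.

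Genes of the set could all be named; each called gene has its difference and SE, the 2 largest called of each family their array values, and the 3 largest each way were named among the further genes. The members, the further genes and the markers were chosen with earlier results of these data known.

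Replicate numbers are shared by the groups. Deviations of same-numbered arrays from their group means correlated at 0.62, 0.45 and 0.45 between the P4 groups. All were above 0.1, the criterion for pairing, and different-numbered arrays gave at most 0.07 there. Between rhoGFP-negative and nestinGFP-positive groups same-numbered arrays gave 0.54, 0.16 and 0.24, also above 0.1. However, rhoGFP-negative replicate 2 and nestinGFP-positive replicate 3 gave 0.22, more than the 0.16 of the arrays numbered 2. A shared number is therefore not shown to pair arrays of those groups. The labels do not say what a number marks. Between rhoGFP-positive and nestinGFP-positive groups same-numbered arrays gave 0.52, -0.01 and 0.25, with no pairing. No 2 arrays of the same group held identical values throughout, each such pair being equal in 603 to 1358 probe sets. Alternatives covered scaling, probe set choice, low signal, samples fitted, replicate block, variance model, thresholds and leaving out each array; leaving out the 3 arrays numbered 1 and an 18S covariate were added after seeing the data. Promoter windows are RefSeq's, on GRCm38.p6.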

Additional observations from a re-analysis of the deposited data

How the results depend on the processing

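No gene of the set changed direction in any comparison while called, in any of the 22 alternatives run. Between the P4 groups the count of higher genes was 1 in place of 2 with the mean of all probe sets, without genes of low signal (44 of the 55 tested; the called genes Unc5d, Robo2, Sema3e, Efna1 and Rgma were not among them) and without the 3 arrays numbered 1, and 3 with no minimum difference, Vldlr being added. Against nestinGFP-positive cells it was 1 with the mean of all probe sets, at an adjusted p below 0.01 and with the 18S signal as a covariate, 3 without _x_at and _s_at probe sets and with a common median, Vldlr being added, and 4 with no minimum difference. Between rhoGFP-negative and nestinGFP-positive cells the count of lower genes, 4, was 1 with the mean of all probe sets and 0 with only the 6 arrays compared and at an adjusted p below 0.01; the count of higher genes, 0, was 1 without the 3 arrays numbered 1 and with the 18S covariate, Robo3 in both. Leaving out each array in turn gave 1 to 2 higher and 20 to 27 lower genes between the P4 groups, 1 to 2 higher and 27 to 29 lower against nestinGFP-positive cells, and 0 higher and 0 to 7 lower between the last pair. For the low-signal, threshold, 6-array and leave-one-out alternatives fewer genes, a stricter threshold or fewer arrays are part of their construction; the cause of the other moves was not tested. The shift to a common median moved the last contrast's calls over all genes from 110 lower and 70 higher to 118 and 123, and its median over all genes to 0.15.

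With the replicate number as a block, no call changed between the P4 groups (24 lower, 2 higher) or against nestinGFP-positive cells (29 and 2). The correlations gave no pairing between rhoGFP-positive and nestinGFP-positive arrays. They did not show that a shared number pairs rhoGFP-negative and nestinGFP-positive arrays either. In the last contrast the block gave 6 lower and 1 higher in place of 4 and 0. Over all genes the counts there were 321 lower and 132 higher in place of 110 and 70.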
